A study of Cucumis sativus with 12 samples.

Results

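Rhamnogalacturonate lyase B (Csa3G892760), pectate lyase 5 (Csa2G350210) and pectinesterase 67 (Csa3G166360) are 3 cucumber genes whose annotated enzymes cut or de-esterify pectin. They were picked by gene ID, out of 24345 genes in the deposited table, because their levels were lower in mutant than in wild-type pistils. The fall against wild type is therefore how they were chosen, and it is given below as a description with no test. The question here is how far each gene's level depended on one mutation or on both.

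RNA came from cucumber stigma and style, the receptive tip of the pistil and the stalk below it, collected when the flower opened. The 4 groups were wild type (WT), the single mutants Csspt-/- and Csalc-/-, and the double mutant CssptCsalc-/-, with 3 biological replicates each. The mutated genes are named after SPATULA and ALCATRAZ, paired bHLH regulators of carpel and fruit development in Arabidopsis, and the series concerns the transmitting tract, the tissue through which pollen tubes grow. How the mutant alleles were made, and whether a genotype came from 1 line or several, is not given in the sources used here.

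Pectin is the gel-like polysaccharide that glues plant cells together, and its main chains are homogalacturonan and the more branched rhamnogalacturonan I. Pectate lyases cut de-esterified homogalacturonan, and pectinesterases remove the methyl groups that shield it, so the one enzyme can prepare the substrate of the other. Rhamnogalacturonan lyases cut the backbone of rhamnogalacturonan I. In the transmitting tract of many flowering plants the walls loosen into a pectin-rich matrix that pollen tubes cross.

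The libraries held 32155631 to 37986853 counts, and 18850 genes, all 3 described here included, passed a filter on low counts. Csalc replicate 3 stood apart: its log2 CPM correlated with the other 11 libraries at 0.810 to 0.856, whereas those 11 correlated with each other at 0.927 to 0.985. The estimate of biological spread that all groups share (common coefficient of variation, edgeR) was 0.363 when the library was kept and 0.193 when it was left out, so results are given with it (12 libraries) and without it (11 libraries). Genes listed as markers of carpel, stigma and style were present, though as a list they do not single out stigma and style. The 18 genes, with names such as AGAMOUS, NGATHA and YABBY, summed to 412 to 419 FPKM in WT and 462 to 470 in Csspt. They summed to 353 to 594 in Csalc and 457 to 539 in the double mutant, although 3 of the 18 were at 0 in all WT libraries. Of 13 tested, 1 fell in each single mutant, and 2 rose and 1 fell in the double mutant. Over all tested genes 0.0584%, 0.785% and 7.18% were called in Csspt, Csalc and the double mutant. WIP2 gene Csa3G810580 had 33.9 to 34.3 FPKM in WT, 9.09 to 10.3 in Csspt, 9.27 to 20.4 in Csalc and 3.84 to 6.74 in the double mutant. SPATULA-named Csa2G356640 had 19.6 to 21.0, 18.9 to 20.9, 5.87 to 12.2 and 8.44 to 13.2. SPATULA-named Csa6G491000 stayed at 0.722 FPKM or below in every library. AGAMOUS-named Csa1G467100 had 2.21 to 3.31, 3.49 to 3.92, 3.05 to 7.52 and 10.8 to 15.6. AGAMOUS-named Csa6G520410 had 50.8 to 57.6, 60.8 to 69.1, 52.1 to 69.8 and 66.9 to 78.4. These genes were named after their values were seen.

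Rhamnogalacturonate lyase B had the highest level of the 3 genes in WT, at 104.2, 99.9 and 98.3 FPKM (fragments scaled to gene length and library size, the authors' unit) in replicates 1, 2 and 3. Its level was 39.4, 22.8 and 21.0 FPKM in Csspt, and 22.6, 20.6 and 28.2 FPKM in Csalc. In the double mutant it was 9.87, 5.97 and 6.33 FPKM. The WT libraries were all above the single mutants, whose ranges overlapped, and the double mutant lay below every single-mutant library. Replicate 1 was the highest library within both Csspt and the double mutant.

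On group means (± SD, n = 3), rhamnogalacturonate lyase B went from 100.8 ± 3.05 FPKM in WT to 27.7 ± 10.1 FPKM in Csspt, 23.8 ± 3.94 FPKM in Csalc and 7.39 ± 2.16 FPKM in the double mutant. These were 27.5%, 23.6% and 7.33% of WT. The fitted log2 fold changes against WT were -1.92 ± 0.25 (SE) in Csspt, -2.24 ± 0.26 in Csalc and -3.89 ± 0.27 in the double mutant. The order of Csspt and Csalc was not separated by their spread.

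Pectate lyase 5 had the deepest loss. It was at 38.2, 28.2 and 29.4 FPKM in WT, at 8.19, 3.24 and 3.65 FPKM in Csspt, at 3.38, 1.46 and 11.8 FPKM in Csalc, and at 1.26, 0.915 and 0.886 FPKM in the double mutant. Every mutant library was below every WT library, and the double mutant was below all 6 single-mutant libraries. The double mutant values rest on 83, 59 and 54 counts, so they lie well above the level of single reads. Within Csalc, replicate 3 was the highest library and the single libraries spread widely, and within Csspt replicate 1 was the highest.

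The group means of pectate lyase 5 were 31.9 ± 5.42 FPKM in WT, 5.03 ± 2.75 in Csspt, 5.53 ± 5.48 in Csalc and 1.02 ± 0.210 in the double mutant (SD, n = 3). The mutants thus stood at 15.7%, 17.3% and 3.20% of WT. Its log2 fold changes against WT were -2.72 ± 0.59 in Csspt, -2.81 ± 0.59 in Csalc and -5.06 ± 0.66 in the double mutant. The Csalc value depended on replicate 3: without it Csalc stood at 7.57% of WT and at a log2 fold change of -3.74 ± 0.47.

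Pectinesterase 67 had the smallest fold changes against WT of the 3 genes. WT had 50.9, 36.3 and 43.0 FPKM, Csspt had 16.9, 16.6 and 16.3 FPKM, Csalc had 23.0, 22.3 and 26.0 FPKM, and the double mutant had 8.74, 7.47 and 8.68 FPKM. It was the one gene of the 3 in which no pair of genotypes overlapped, with the order WT, Csalc, Csspt and double mutant from high to low. For Csspt below Csalc alone, that held for 5.89% of all tested genes. The share of all genes with every pair apart was not counted. The means were 43.4 ± 7.30, 16.6 ± 0.300, 23.8 ± 1.94 and 8.30 ± 0.715 FPKM in WT, Csspt, Csalc and double mutant (SD, n = 3). Relative to WT this was 38.3% in Csspt, 54.8% in Csalc and 19.1% in the double mutant, and the log2 fold changes were -1.45 ± 0.13, -1.02 ± 0.13 and -2.50 ± 0.14.

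For the 3 genes, all libraries of a mutant lay below all WT libraries in each of the 3 mutants, which was how they were picked. Over all tested genes that held for 10.9% in Csspt, 9.52% in Csalc and 17.5% in the double mutant. Across tissue samples of this kind, fewer cells of a type and less RNA per cell cannot be told apart. The summed level of 35 genes named for pollen, which can lie on an open stigma, was 120 to 134 FPKM in WT, 87.0 to 88.2 in Csspt, 81.1 to 184 in Csalc and 68.2 to 81.6 in the double mutant. Without the allergen-like Csa5G222980, left out after its values were seen, the sums were 83.7 to 85.8, 76.0 to 80.6, 76.6 to 184 and 67.9 to 80.6 FPKM. Csa5G222980 itself had 34.3 to 50.5, 6.48 to 11.6, 0.171 to 7.19 and 0.277 to 0.933 FPKM. The highest Csalc sum held 116 FPKM of 1 gene, Csa6G485140, in replicate 3. Without Csa6G485140 the sums were 110 to 121, 69.7 to 72.9, 64.2 to 68.8 and 51.6 to 60.4 FPKM. Without both genes they were 70.5 to 75.5, 58.9 to 66.4, 59.7 to 68.1 and 51.3 to 59.4 FPKM, with all mutant libraries below all WT libraries. Of the 35 genes 18 were tested, and 11 were at 0 in all WT libraries. Of those tested 0 were called in either single mutant, and 0 rose and 1 fell in the double mutant. Over all tested genes 0.0584%, 0.785% and 7.18% were called in Csspt, Csalc and the double mutant. With 11 libraries 3 fell in Csspt, 2 fell in Csalc, and 1 rose and 4 fell in the double mutant. Of all genes 4.72%, 4.36% and 36.1% were then called. The part of the genes named for pollen in the levels of the 3 genes was not tested.

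**Figure D1:**
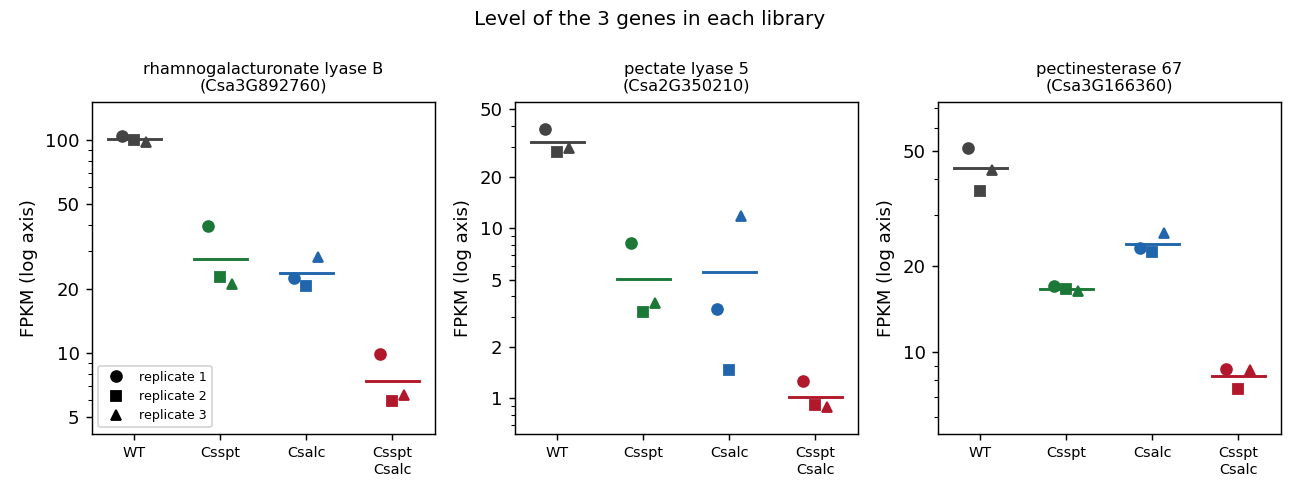
Level of each gene in every library (FPKM, log axis), with points for replicates 1 to 3 and a line at the group mean. The double mutant points lie below all single-mutant points for each gene, and in pectate lyase 5 the Csalc points spread from 1.46 to 11.8 FPKM.

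Whether the second mutation lowered a gene further was tested between the mutants. The test was the quasi-likelihood test of edgeR, p-values were adjusted by Benjamini-Hochberg over all tested genes, and the threshold was 0.05. The libraries are the same ones whose fall against WT chose the genes, so these tests are not independent of that choice. Against Csspt, the double mutant was lower for rhamnogalacturonate lyase B by a log2 fold change of -1.96 ± 0.25 (adjusted p = 0.0134, edgeR) and for pectinesterase 67 by -1.05 ± 0.13 (adjusted p = 0.0128, edgeR). In that contrast 0.244% of all tested genes were called lower. Pectate lyase 5 had the largest difference, -2.34 ± 0.59, but with adjusted p = 0.134 in edgeR it did not pass. With 11 libraries its value was -2.34 ± 0.41 with adjusted p = 0.00668, and 6.59% of all genes were then called lower.

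Against Csalc, rhamnogalacturonate lyase B was lower in the double mutant by -1.64 ± 0.25 on the log2 scale (adjusted p = 0.0243, edgeR). Pectinesterase 67 was lower by -1.48 ± 0.13 (adjusted p = 0.00290, edgeR). Called lower in this contrast were 0.249% of all tested genes. Pectate lyase 5 did not pass, at -2.26 ± 0.59 (adjusted p = 0.120, edgeR), nor without Csalc replicate 3, at -1.33 ± 0.45 (adjusted p = 0.0813, edgeR, against 4.94% of all genes called lower). For each gene all 3 double mutant libraries lay below all 3 libraries of either single mutant, which held for 12.9% of all tested genes against Csspt and for 5.99% against Csalc.

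Some of these calls were lost with a single library left out, in sets where a smaller share of all genes was called too. With 12 libraries 0.361% of all genes were called in either direction against Csspt and 0.711% against Csalc. The call of rhamnogalacturonate lyase B against Csspt was lost without Csspt replicate 2 and without double mutant replicate 2 or 3 (adjusted p 0.0533, 0.0758 and 0.0694, edgeR). In these sets 0.0365%, 0.0419% and 0.047% of all genes were called. Against Csalc its call was lost without WT replicate 3, Csalc replicate 1 or any double mutant replicate (adjusted p 0.0504 to 0.0924, edgeR). In those sets 0.0261% to 0.475% of all genes were called. Pectinesterase 67 lost its call against Csspt without Csspt replicate 2 or 3 or any double mutant replicate (adjusted p 0.0579 to 0.0758, edgeR), where 0.0365% to 0.0628% of all genes were called. Over all 12 sets with 1 library left out, its log2 difference between double mutant and Csspt stayed between -1.10 and -0.98. It kept its call against Csalc in all 12 sets. Pectate lyase 5 passed against Csalc without Csalc replicate 2, at -2.68 (adjusted p = 0.0472, edgeR), where 0.684% of all genes were called. When only the 2 groups compared were fitted, adjusted p in edgeR against Csalc was 0.182 for rhamnogalacturonate lyase B and 0.171 for pectinesterase 67. In that fit 0% of all genes were called.

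The single mutants were compared with each other in the same fit. The log2 difference of Csspt from Csalc was 0.32 for rhamnogalacturonate lyase B (95% interval -0.22 to 0.87, adjusted p = 0.558, edgeR) and 0.08 for pectate lyase 5 (-1.15 to 1.31, adjusted p = 0.952, edgeR). For pectinesterase 67 it was -0.43 (-0.72 to -0.13), with unadjusted p = 0.00855 and adjusted p = 0.320 in edgeR. None passed, in a contrast where 0.0637% of all genes were called. Pectinesterase 67 was lower in all 3 Csspt libraries than in all 3 Csalc libraries, which held for 5.89% of all tested genes. Without Csalc replicate 3 the 3 differences were 0.32, 1.01 and -0.49, with adjusted p of 0.665, 0.338 and 0.117 in edgeR (0.498% of all genes called). The size of the difference of pectate lyase 5 thus changed with this library, and with others too. Without Csspt replicate 1 the difference of rhamnogalacturonate lyase B turned to -0.04 and that of pectate lyase 5 to -0.49. That of pectate lyase 5 was also below 0, at -0.11 and -0.34, without Csalc replicate 1 or 2.

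**Figure D2:**
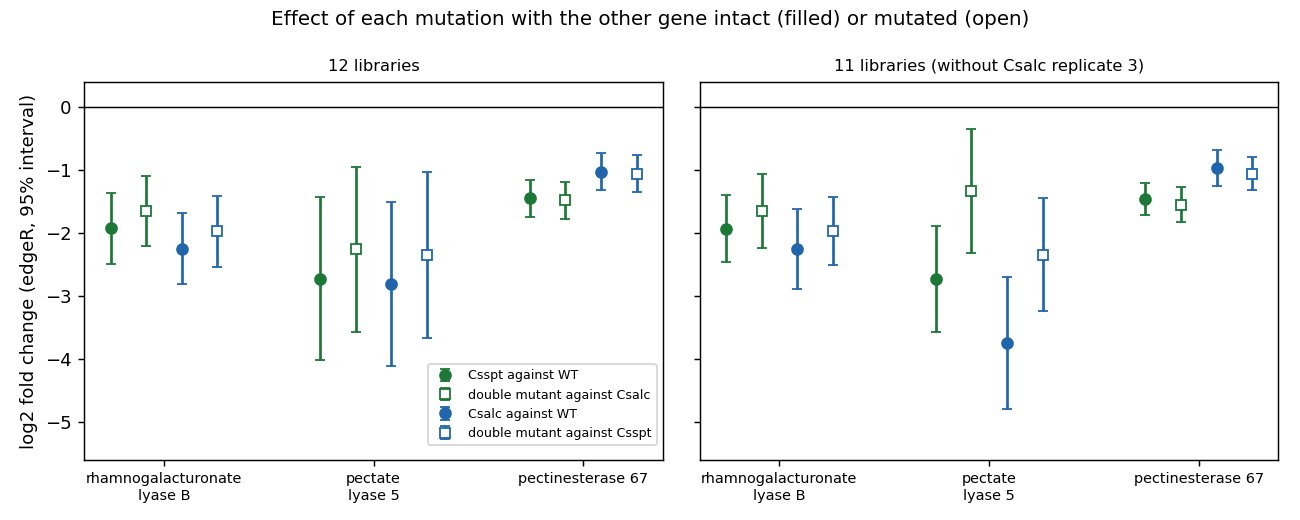
Log2 fold change of each gene with its 95% interval (edgeR), for loss of Csspt (green) and of Csalc (blue), with the other gene intact (filled) or mutated (open). The left panel has 12 libraries and the right panel 11 (without Csalc replicate 3), where pectate lyase 5 in Csalc against WT goes from -2.81 to -3.74.

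If the losses in the single mutants simply multiplied, rhamnogalacturonate lyase B would stand at 5.57% of WT in the double mutant on the fitted scale, and it stood at 6.76%. For pectate lyase 5 the product was 2.17% and the fitted level 2.99%, and for pectinesterase 67 the product was 18.1% and the level 17.7%. The departure from this on the log2 scale was 0.28 (95% interval -0.49 to 1.05) for rhamnogalacturonate lyase B, 0.46 (-1.30 to 2.23) for pectate lyase 5 and -0.03 (-0.44 to 0.38) for pectinesterase 67. None passed (adjusted p 0.855, 0.894 and 0.972, edgeR), and the intervals do not show that the losses multiply exactly. They are narrowest for pectinesterase 67, and for pectate lyase 5 they span more than 3 log2 units. In this contrast 0% of all genes were called by edgeR with 12 libraries, against 1274 genes at an unadjusted p under 0.05 and 61 called by DESeq2.

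Without Csalc replicate 3 the departure of pectate lyase 5 was 1.40 (0.11 to 2.70), with unadjusted p = 0.0363 and adjusted p = 0.324 in edgeR, where 0.0262% of all genes were called. The product of the single-mutant levels was then 1.13% of WT, and the double mutant stood at 2.98%. For pectinesterase 67 the departure changed sign without WT replicate 2 (0.09), Csalc replicate 1 (0.02) or double mutant replicate 2 (0.04). Read the other way, pectinesterase 67 was 2.73-fold lower in Csspt than in WT, and 2.79-fold lower in the double mutant than in Csalc. It was 2.03-fold lower in Csalc than in WT, and 2.07-fold lower in the double mutant than in Csspt.

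Across the 12 libraries the log2 CPM of rhamnogalacturonate lyase B correlated with that of pectate lyase 5 at Pearson r = 0.957 and with that of pectinesterase 67 at 0.951, and the latter pair correlated at 0.898. These are descriptions, since all 3 genes were picked for a fall over the same genotypes. After the group means were subtracted, r was 0.52, 0.25 and -0.05, and with 11 libraries it was 0.79, 0.27 and 0.37. Both lyases were high in Csspt replicate 1 and in double mutant replicate 1.

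Each gene was then set against its own enzyme family, taken by annotated name. Rhamnogalacturonate lyase B was the most abundant of 7 rhamnogalacturonan lyase genes in every WT library and made up 56.8% ± 2.66 (SD, n = 3) of their summed FPKM. Its share was 28.3% ± 8.04 in Csspt, 30.6% ± 12.4 in Csalc and 9.78% ± 4.22 in the double mutant. The other 6 genes together summed to 77.0 ± 9.61 FPKM in WT and to 71.0 ± 13.0 with both genes mutated, a difference within the spread between replicates. Of those 6 genes 5 were tested, and 0 were called in any contrast with 12 libraries, where at most 7.18% of all genes were called. With 11 libraries 1 of 6 tested was called lower in the double mutant against WT and 1 higher against Csalc. Of all genes 36.1% and 11.2% were then called.

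Pectate lyase 5 was a smaller part of its family of 18 genes, ranking 3 or 4 in WT with 2.72% ± 0.853 of the summed FPKM, and ranking 9 with 0.151% ± 0.0263 in the double mutant. The family was dominated by pectate lyase 22 (Csa1G049960), at 1024 ± 147 FPKM in WT and 543 ± 218 in the double mutant, with a log2 fold change of -1.04 ± 0.31 that did not pass with 12 libraries (adjusted p = 0.0748, edgeR) and did with 11 (adjusted p = 0.0125, edgeR). Of the other 17 genes 10 were tested, and pectate lyase 12 (Csa5G622520) rose in the double mutant by 1.51 ± 0.24 on the log2 scale (adjusted p = 0.00669, edgeR), from 5.76 to 17.8 FPKM. It was called in all 12 sets with 1 library left out.

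Pectinesterase 67 ranked 6 to 8 of 60 pectinesterase genes in WT, with 2.14% ± 0.335 of the summed FPKM, and 16 or 17 in the double mutant with 0.683% ± 0.0938. The other 59 genes summed to 1984 ± 23.3 FPKM in WT and to 1226 ± 241 in the double mutant. Pectinesterase 63 (Csa1G597780), the most abundant of them, fell from 1197 ± 66.97 to 369 ± 61.6 FPKM, a log2 fold change of -1.81 ± 0.19 (adjusted p = 0.00110, edgeR) that was called in all 12 sets with 1 library left out.

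**Figure D3:**
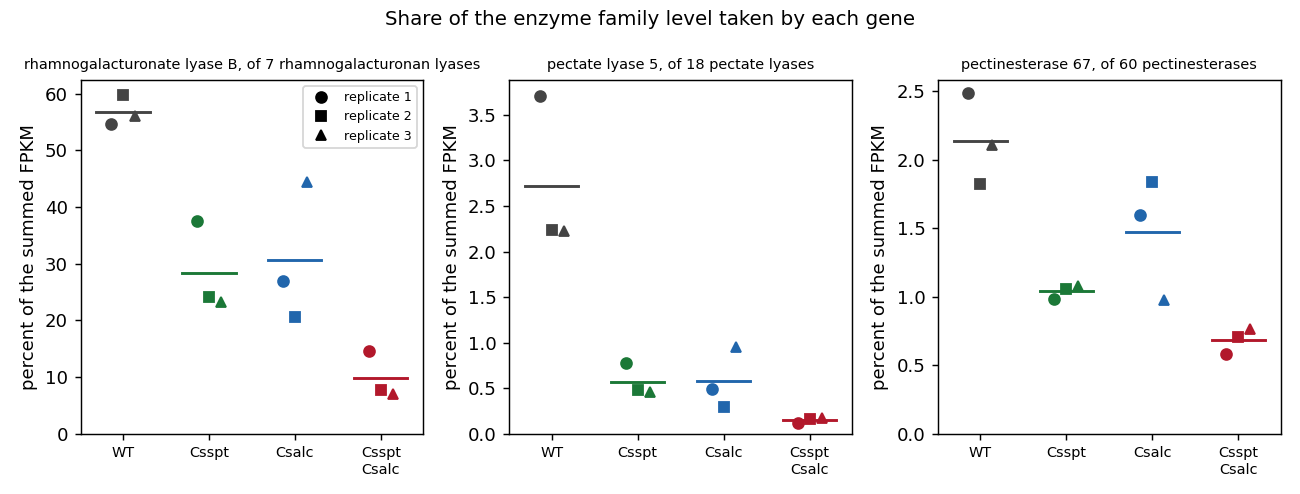
Share of the summed FPKM of its enzyme family taken by each gene in each library (percent, each panel with its own axis from 0), with points for replicates and a line at the group mean. Rhamnogalacturonate lyase B goes from 56.8% of 7 genes in WT to 9.78% in the double mutant, while pectate lyase 5 and pectinesterase 67 are below 4% throughout.

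Rhamnogalacturonate lyase B has neighbours of the same name. By the deposited best database matches, Csa3G892750, Csa3G892760 and Csa3G892770 correspond to consecutive protein-coding genes on chromosome 3 in RefSeq; positions are left out because the build of the files is not given in the sources used here. Csa3G892770 was at 55.0, 53.2 and 56.8 FPKM in WT, at 49.5 to 51.3 in Csspt, at 51.6, 45.0 and 28.2 in Csalc, and at 42.4, 45.6 and 44.7 in the double mutant. It lay below Csa3G892760 in all WT libraries and above it in all double mutant libraries.

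The double mutant against WT gave Csa3G892770 a log2 fold change of -0.42 ± 0.25 (adjusted p = 0.331, edgeR, and 0.00219 with 11 libraries), beside -3.89 for rhamnogalacturonate lyase B. With 11 libraries 36.1% of all genes were called in this contrast. Csa3G892750 was low, at 2.06, 1.53 and 1.87 FPKM in WT, at 3.67, 0.499 and 0.333 in Csspt and at 0.322, 0.454 and 2.60 in Csalc. In the double mutant it was at 8.84, 5.75 and 6.03 FPKM, above all other libraries, but its log2 fold change of 1.80 ± 0.87 did not pass (adjusted p = 0.239 with 12 and 0.0599 with 11 libraries, edgeR). How many reads such similar copies share was not measured, so the split of counts between them is uncertain.

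**Figure D4:**
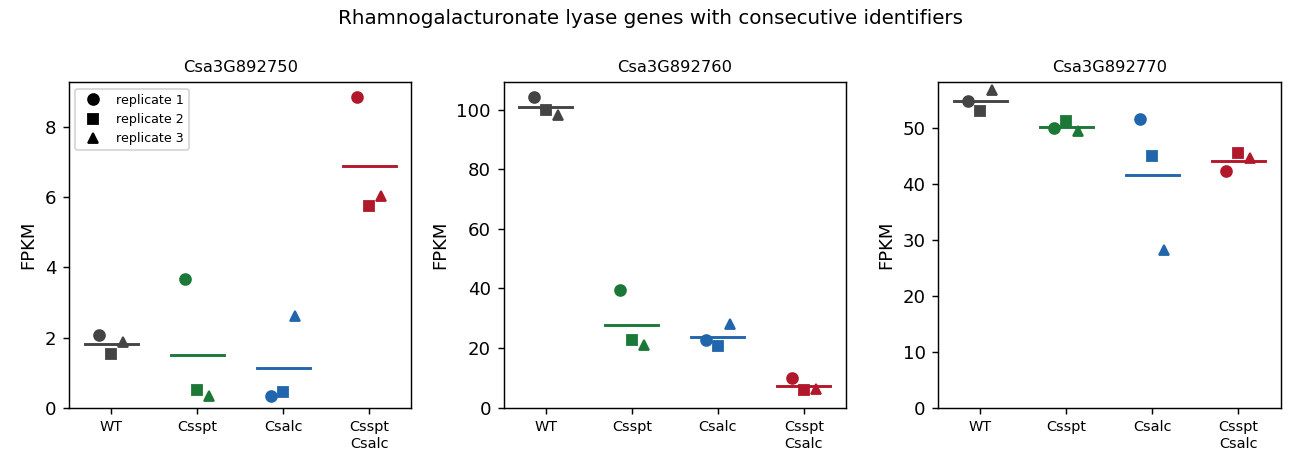
Level of the 3 neighbouring rhamnogalacturonan lyase genes in every library (FPKM, each panel with its own axis from 0), with points for replicates and a line at the group mean. Csa3G892760 is the highest of the 3 in WT and lies at 5.97 to 9.87 FPKM in the double mutant, while Csa3G892770 stays between 28.2 and 56.8 FPKM.

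Beyond the 3 genes, 224 other genes carried the name of an enzyme or inhibitor that makes, trims or cuts pectin, in 9 lists, and 133 of them were tested. In the double mutant against WT 6 rose and 4 fell, which is 7.52% against 7.18% of all tested genes, so the share called among pectin genes was near the background. Their median log2 fold change was 0.11, against 0.03 over all genes. The number called ranged from 4 to 60 when single libraries were left out: 60 without Csalc replicate 3 (44.8%, against 36.1% of all genes), 4 without WT replicate 1 or 3, 5 without WT replicate 2, and 6 without Csspt replicate 2 or double mutant replicate 1 or 3. In those 6 sets with 4 to 6 called, 2.94% to 4.44% of the tested pectin genes and 2.26% to 5.04% of all genes were called. DESeq2 called 28 (21.1%, against 15.6% of all genes).

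Of the 4 that fell, pectinesterase 63 is given above, and beta-galactosidase 3 (Csa2G249880), which trims galactan side chains, fell from 58.3 ± 10.7 to 3.32 ± 1.48 FPKM (log2 fold change -4.23 ± 0.49, adjusted p = 0.00134, edgeR). It was called in all 12 sets with 1 library left out. Its mean was 33.7 FPKM in Csspt and 45.1 in Csalc, neither called against WT. Pectinesterase 15 (Csa3G745520) fell by 2.80 on the log2 scale, and CGR2 (Csa5G630200), whose Swiss-Prot name calls it a pectin methylesterase, fell by 0.46. Those calls were lost without any 1 of 9 and of 8 single libraries (adjusted p up to 0.145 and 0.112, edgeR).

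Of the 6 that rose, pectate lyase 12 is given above, and pectinesterase/pectinesterase inhibitor 22 (Csa1G569210) rose by 1.87 ± 0.31 (adjusted p = 0.00775, edgeR), from 4.36 to 17.3 FPKM, in all 12 sets with 1 library left out. Polygalacturonase At1g48100 (Csa3G838140), a homogalacturonan hydrolase by name, rose by 3.26 ± 0.61, from 1.36 to 14.3 FPKM, but not without WT replicate 1 or 3. Pectin acetylesterase 8 (Csa4G056500), which removes acetyl groups, rose by 1.07 ± 0.22, from 252 to 575 FPKM, and its call was lost without any WT replicate or without double mutant replicate 1. Pectinesterase 3 (Csa3G646620) and a second gene named beta-galactosidase 3 (Csa4G044980) rose by 0.89 and 1.03, and lost their calls without 7 and 6 of the 12 libraries. Enzymes that cut or de-esterify homogalacturonan were thus among both the genes that rose and those that fell.

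With 12 libraries the lists without calls in the double mutant were those of pectin synthesis (23 tested, median log2 fold change -0.14), pectinesterase inhibitors (3 tested, 1.12) and polygalacturonase inhibitors (3 tested, -0.49), along with the other rhamnogalacturonan lyases (5 tested, -0.13). Without Csalc replicate 3 each of them had calls: 10 of 23, 3 of 3, 3 of 3 and 1 of 6 tested, where 36.1% of all genes were called. The highest of the synthesis genes in WT, galacturonosyltransferase Csa7G378420, had 54.5 FPKM in WT and 52.7 in the double mutant. The most abundant polygalacturonase, Csa3G121720, had 398 and 209 FPKM, a log2 difference of -1.03 ± 0.56 (adjusted p = 0.296, edgeR, and 0.00161 with 11 libraries).

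In the single mutants the other pectin genes gave few calls. In Csspt 0 of 133 were called by edgeR, where 0.0584% of all genes were called, with 8 at an unadjusted p under 0.05. DESeq2 called 3 (2.26%, against 1.7% of all genes). In Csalc 1 rose and 1 fell, where 0.785% of all genes were called: pectinesterase/pectinesterase inhibitor 51 (Csa2G302140) at 1.93 ± 0.36 (adjusted p = 0.0430, edgeR) and pectinesterase 63 (Csa1G597780) at -0.97 ± 0.19 (adjusted p = 0.0488, edgeR). Left-out libraries took the count in Csalc from 0 to 10: it was 10 without Csalc replicate 1 (7.35%, against 6.63% of all genes) and 9 without Csalc replicate 3 (6.72%, against 4.36%). It was 1 without double mutant replicate 1 (0.741%, against 0.602%) and 0 without any of the other 9 libraries, where 0.172% to 0.548% of all genes were called. In Csspt it was 7 without Csalc replicate 3 (5.22%, against 4.72%).

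Between the mutants, the other pectin genes gave 2 calls lower and 0 higher in the double mutant against Csspt, where 0.361% of all genes were called, and 1 lower and 3 higher against Csalc, where 0.711% were. Both calls against Csspt were genes that also fell against WT: pectinesterase 63 (Csa1G597780) at a log2 difference of -1.15 ± 0.19 (adjusted p = 0.0337, edgeR) and beta-galactosidase 3 (Csa2G249880) at -3.37 ± 0.47 (adjusted p = 0.0159, edgeR). Against Csalc, beta-galactosidase 3 was lower by -3.71 ± 0.47 (adjusted p = 0.0168, edgeR), and pectinesterase/pectinesterase inhibitor 22 (Csa1G569210) was higher by 2.28 ± 0.31 (adjusted p = 0.0186, edgeR). The polygalacturonases Csa3G838140 and Csa5G600960 were higher by 3.22 ± 0.61 and 1.50 ± 0.27 (adjusted p 0.0471 and 0.0378, edgeR). All of these calls were lost with some single library left out, in 8 and 5 of 12 cases for the genes against Csspt and in 3, 2, 10 and 9 of 12 for those against Csalc, in the order given. Over the sets with 1 library left out the counts ranged from 0 to 25 against Csspt and from 0 to 28 against Csalc, highest without Csalc replicate 3 in both (18.7% and 20.9%, against 14.4% and 11.2% of all genes). Csa5G600960 was named after its value was seen.

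**Figure D5:**
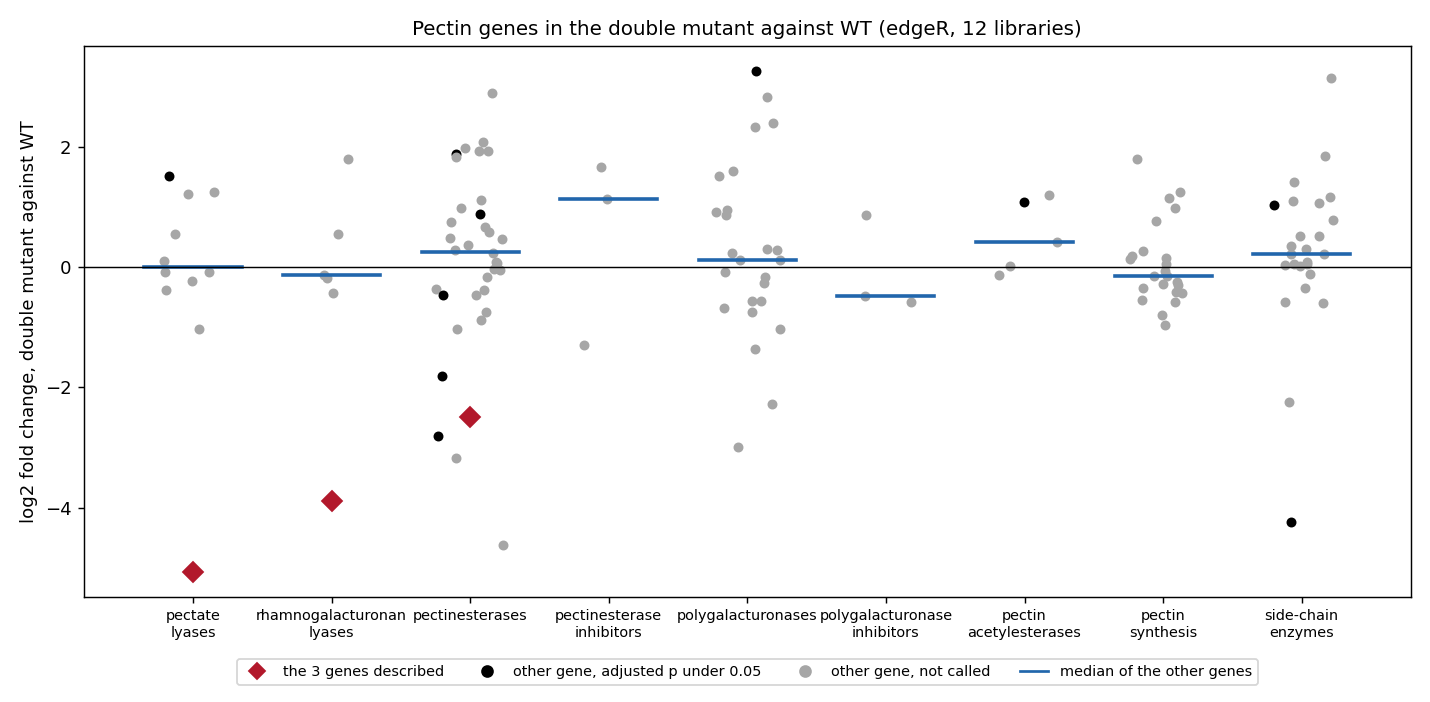
Log2 fold change in the double mutant against WT for every tested gene of the 9 pectin lists, by edgeR with 12 libraries. Diamonds are the 3 genes described, black points other genes with an adjusted p under 0.05, grey points other genes, and blue lines the medians of the other genes, which lie between -0.49 and 1.12.

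The 5 genes with the highest Pearson r to each gene over the 12 libraries were named, among those with an informative protein name and at least 2 FPKM in a group. For rhamnogalacturonate lyase B they were transmembrane protein 87B (Csa4G377710, r = 0.979), PIF1 (Csa7G333400, 0.974), a pentatricopeptide repeat protein (Csa3G810560, 0.973), a glycosyltransferase (Csa3G115020, 0.972) and the lipid transfer protein SFH3 (Csa2G248750, 0.971). For pectate lyase 5 they were the protein kinase SRK2E (Csa7G074880, 0.976), oligopeptide transporter 1 (Csa3G047870, 0.974), BEE 3 (Csa1G024150, 0.972), SFH3 again (0.970) and the ion channel CNGC15c (Csa6G146420, 0.965). For pectinesterase 67 they were cytochrome P450 77A3 (Csa6G044530, 0.984), transmembrane protein 87B again (0.965), STRUBBELIG-RECEPTOR FAMILY 7 (Csa7G447950, 0.962), bHLH149 (Csa1G555600, 0.962) and the oligosaccharyltransferase subunit OSTC (Csa1G427500, 0.956).

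Like the 3 genes, SFH3 was lower with each mutation and lowest with both, at 197 FPKM in WT, 76.9 in Csspt, 59.6 in Csalc and 18.3 in the double mutant. PIF1 and BEE 3, which are bHLH transcription factors in Arabidopsis, had 15.7 and 302 FPKM in WT, against 4.41 and 79.6 with both mutations. The fold changes of these neighbours in profile were unequal, since the glycosyltransferase went only from 11.1 to 6.38 FPKM. Such lists are unstable here: for each of the 3 genes 1 of its 5 was also among the first 5 without Csalc replicate 3, and 1 was by Spearman's rho.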

How the data were processed

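The 12 libraries of cucumber stigma and style, 3 per genotype, were measured by RNA-seq. Whole-number read counts and FPKM values come from the table deposited by the authors, per the file headers. The tools were HISAT2, HISAT and DESeq2, per the submitters' processing notes. The version of each, the counting tool, the genome build and the gene models were not given in the sources used here. Columns with the header DM were taken as the double mutant. None of the gene IDs matched the RefSeq table (0 matches), so names come from the deposited annotation (Swiss-Prot, else the non-redundant protein name) and the neighbouring genes were linked through deposited KEGG matches.

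Counts were tested in R 4.3.3 with edgeR 4.0.16 (filterByExpr with a minimum count of 10, TMM, glmQLFit and glmQLFTest on all 4 groups), with p-values adjusted by Benjamini-Hochberg within each contrast and without a replicate block. P-values set a difference between groups against the spread between replicates, which was estimated over all groups in the fit. Correlations used log2 CPM with a prior count of 2. The fit was tested on simulated counts with the same spread for all genes and no library standing apart. That test therefore does not show how the fit behaves with Csalc replicate 3. Alternatives were DESeq2 1.42.0, DESeq2-type size factors, no filter, limma 3.58.1 on log2(FPKM + 1) and log2(FPKM + 0.1), only the groups compared, a replicate block, each library left out, lists by the non-redundant name and shares by CPM. The genes and lists were chosen with earlier results of these data known. Named genes are the 3 described, the 4 highest in WT and those called in the double mutant per list, every gene of lists with 5 or fewer tested, and the 5 most correlated; the text gives a selection of these. Csa2G302140 was named after its value was seen.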

Additional observations from a re-analysis of the deposited data

How the results depend on the processing

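The falls against WT kept their direction in all settings for the 3 genes. With limma on log2(FPKM + 1) the log2 fold change of rhamnogalacturonate lyase B in Csalc was -2.05 (-2.09 with a pseudocount of 0.1), and those of pectate lyase 5 and pectinesterase 67 in the double mutant were -4.02 and -2.24. The replicate numbers did not pair the libraries: same-numbered libraries deviated together at r from -0.25 to 0.21, over 0.1 in 2 of 18 pairs, and 2 of 12 libraries correlated best with their own number. With the replicate block, adjusted p of the double mutant against Csspt and Csalc was 0.0367 and 0.0403 for rhamnogalacturonate lyase B, 0.187 and 0.189 for pectate lyase 5, and 0.0387 and 0.0171 for pectinesterase 67. The block changed no call of the 3 genes, and the count of other pectin genes called became 0 in Csalc against WT and 1 in the double mutant against either single mutant, where 0.398%, 0.175% and 0.0849% of all genes were called.

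Pectate lyase 5 passed against Csspt and Csalc with DESeq2 (-2.34 and -2.26, adjusted p 0.00327 and 0.00413) and against Csspt when only the groups compared were fitted (-2.34, adjusted p = 0.0214). In fits of only the groups compared, rhamnogalacturonate lyase B and pectinesterase 67 against Csalc were -1.65 and -1.49 and did not pass, where 0% of all genes were called. With single libraries left out, log2 differences of the double mutant from Csspt and from Csalc ranged from -2.21 to -1.61 and from -1.89 to -1.52 for rhamnogalacturonate lyase B, from -2.58 to -1.78 and from -2.68 to -1.33 for pectate lyase 5, and from -1.10 to -0.98 and from -1.54 to -1.42 for pectinesterase 67. Csspt against Csalc ranged from -0.040 to 0.50 for rhamnogalacturonate lyase B and from -0.49 to 1.01 for pectate lyase 5, and the departure from additivity of pectinesterase 67 from -0.15 to 0.086.

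Counts of other pectin genes called moved most. DESeq2 called 3 in Csspt, 15 in Csalc and 28 in the double mutant against WT, 10 and 14 in the double mutant against Csspt and Csalc, 1 between the single mutants and 4 for the departure from additivity, where 1.7%, 8.46%, 15.6%, 4.63%, 5.12%, 2.22% and 0.324% of all genes were called. Fits of only the groups compared gave 15, 0 and 65 against WT and 14 and 0 in the double mutant against Csspt and Csalc, where 6.77%, 0.0111%, 36.1%, 8.96% and 0% of all genes were called. In Csalc against WT, 1 was called with no filter and 0 with limma at either pseudocount, where 0.621% to 0.727% of all genes were. With single libraries left out the counts ranged from 0 to 7, 0 to 10 and 4 to 60 in Csspt, Csalc and the double mutant against WT, from 0 to 25 and 0 to 28 in the double mutant against Csspt and Csalc, and from 0 to 2 between the single mutants. In the sets with the highest counts 4.72%, 6.63%, 36.1%, 14.4%, 11.2% and 0.498% of all genes were called, in the same order. Without Csalc replicate 3 fewer libraries and a smaller spread enter at once. The level of pectate lyase 5 in the double mutant rests on 54 to 83 counts per library.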

Other observations

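The scale of Csalc replicate 3 differed from that of the other libraries, with a TMM factor of 1.24 against 0.938 to 1.04. By FPKM it was the highest Csalc library for pectinesterase 67, at 26.0, and by CPM with TMM factors it was the lowest, at 45.9 against 53.4 and 51.2. For pectate lyase 5 it was the highest on both scales, at 11.8 FPKM and 16.2 CPM against 6.12 and 2.63 CPM.

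Marker lists of other tissues also differed between genotypes. Phloem markers summed to 238 to 271 FPKM in WT and 293 to 378 in the double mutant, where 4 of 15 tested rose and 0 fell. In Csspt they summed to 289 to 309 FPKM, above all WT libraries, and in Csalc to 248 to 315, with 0 called. Xylem markers summed to 17.3 to 19.9 FPKM in WT and 20.4 to 24.8 in the double mutant, with 2 of 8 tested called higher there. In Csspt these summed to 14.5 to 19.5 FPKM and in Csalc to 12.9 to 21.6, with 0 called. Surface epidermis markers were at 147 to 214 FPKM in WT and 99.6 to 159 in Csspt. They were at 439 to 1189 FPKM in Csalc and 132 to 405 in the double mutant. Of 9 tested 2 rose in Csalc and 1 in the double mutant. Most of each sum was 1 CER1 gene, Csa3G127760, at 105 to 159 FPKM in WT and 330 to 917 in Csalc. CER3 (Csa1G294020) was also higher in Csalc, at 36.7 to 73.7 against 9.73 to 11.2 in WT. The 3-ketoacyl-CoA synthase 6 gene Csa5G609650 had 2.78 to 5.08 FPKM in WT and 1.18, 2.68 and 25.2 in Csalc. These genes were named after their values were seen. Over all tested genes 7.18% were called in the double mutant, 0.785% in Csalc and 0.0584% in Csspt. Without Csalc replicate 3, 9 of 16 tested phloem markers rose and 1 fell in the double mutant, and 4 of 8 xylem markers rose. Surface epidermis calls stayed at 2 in Csalc and 1 in the double mutant. Of all genes 36.1% were then called in the double mutant and 4.36% in Csalc. The part of these markers in the levels of the 3 pectin genes was not tested.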
